A study of Mus with 15 samples.

Results

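H2AK119ub1 (H2Aub, histone H2A with 1 ubiquitin attached to its tail) was compared between cocaine and saline in the thalamus of mice lacking Maged1 in Vglut2-expressing cells (Maged1-cKO, written cKO below). The members were the 5 peak lists of this genotype, 2 after cocaine and 3 after saline, out of 11 H2Aub peak lists and 15 samples in the series. They were taken by genotype and treatment as GEO labels them. The 4 total input libraries were not analysed here. In both groups Maged1 loxP alleles were deleted by Cre under the vGluT2 promoter, so thalamic cells that never expressed this promoter kept Maged1. All mice were 2 to 4 months old and received saline for 3 days. The cocaine group then received 20 mg/kg of cocaine intraperitoneally for 5 days, and the saline group received saline instead. Each sample was a pool of 3 to 4 thalami per the labels. The study's methods give a lower minimum and name hemizygous males. The Maged1 WT lists used for reference, 3 after cocaine and 3 after saline, came from mice treated in the same way that kept Maged1.

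H2Aub is placed by the Polycomb repressive complex PRC1, whose catalytic subunits are Ring1 and Rnf2, and is removed by deubiquitinases. Together with the methylated histone H3 placed by PRC2, it marks genes that are kept silent in a tissue, above all the developmental regulators that set up the body axis and other cell lineages. MAGED1 belongs to a protein family whose members partner with ubiquitin ligases, and USP7 is a deubiquitinase that acts on many nuclear proteins. In the thalamus Vglut2, encoded by Slc17a6, loads glutamate into the vesicles of most projection neurons.

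H2Aub was measured by ChIPmentation, a chromatin immunoprecipitation in which the Tn5 transposase inserts the sequencing adapters on the beads. Every list gives the broad peaks called in 1 library against total input, with coordinates on the mm10 assembly. A gene was described by its body plus 5 kb on each side (its window) and by the length of that window under peaks, in base pairs. A list of genes was described by the length under peaks in the merged windows of its members. The study gives a minimum depth for its samples, but the lists hold no read counts, so the depth of each list is unknown. A peak list does not report expression, and Maged1 itself had no peak in any of the 5 lists, so the deletion could not be checked here. In bulk tissue, fewer cells that carry the mark and less of the mark per cell cannot be told apart.

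The replicate 1 list of each group was of another kind than the rest. These 2 lists held 54653 peaks (cocaine) and 80713 peaks (saline), with 7542 and 6877 peaks at q of at most 1e-10. The other 3 cKO lists held 7271 to 17442 peaks, of which 3 to 8 reached that q. Each result below is therefore also given without both replicate 1 lists, which leaves cocaine replicate 2 against saline replicates 2 and 3 and no spread in the cocaine group. Ordered by covered length, saline replicate 1 was the longest list (27.6 Mb), followed by cocaine replicate 1 (21.2 Mb), cocaine replicate 2 (11.1 Mb), saline replicate 2 (7.67 Mb) and saline replicate 3 (4.24 Mb). A gene could thus be higher in both cocaine lists only if a mid-length list exceeded the longest one, and higher in all saline lists only if the shortest list exceeded both cocaine lists. The arithmetic mean of the covered length was 1.23 times as long after cocaine (16.1 against 13.2 Mb, 0.30 on the log2 scale). It was 1.86 times as long without the replicate 1 lists (0.89 on the log2 scale), and 0.770 times as long between the replicate 1 lists alone (log2 -0.38). These are ratios of plain means. The log2 differences in genes with a peak and in length in gene windows below are of mean log2 values. Their sizes are therefore not comparable with these ratios.

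The number of genes with H2Aub peaks differed between treatments by less than the lists of a group differed among themselves. Of 21887 protein-coding genes, 11031 (50.4%) and 4839 (22.1%) had a peak in cocaine replicates 1 and 2. In saline replicates 1, 2 and 3 the numbers were 12881 (58.9%), 3436 (15.7%) and 2756 (12.6%). Both cocaine lists lay between the highest and the lowest saline list. The mean log2 number of genes with a peak was 0.56 ± 0.91 (SE) higher in cocaine, a ratio of 1.47 (exact permutation test, two-sided, p = 0.6, 2 against 3 lists). With 10 arrangements the smallest p this test allows is 0.1, so none of the permutation tests of these 5 lists could pass 0.05. Its size depended on the scale and its direction on 1 list. It was -0.035 without cocaine replicate 1, 0.071 with equal numbers of peaks per list, and 0.14 with the replicate number as a block, from pairs at -0.22 and 0.49. With cocaine replicate 2 and saline replicates 2 and 3 alone the difference was 0.65 on the log2 scale, with no test.

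The length under peaks in gene windows was 14.4 and 7.84 Mb in the cocaine lists. It was 17.1, 5.56 and 3.32 Mb in the saline lists, a range that enclosed both cocaine values. The difference was 0.64 ± 0.83 (SE) on the log2 scale, a ratio of 1.56 (exact permutation test, two-sided, p = 0.5), and 0.87 without the replicate 1 lists. With equal numbers of peaks per list it turned to -0.21. Gene windows took 67.8 and 70.9% of the covered length in the cocaine lists and 62.2, 72.5 and 78.4% in the saline lists. This share differed by -1.66 ± 4.99 (SE) percentage points (exact permutation test, two-sided, p = 0.8), and by -4.57 points without the replicate 1 lists. In WT mice the log2 number of genes with a peak was 0.36 higher after cocaine. The treatment difference in cKO was larger than that in WT by 0.20 on the log2 scale, which did not pass the test (permutation of treatment within genotype over 200 arrangements, two-sided, p = 0.815, smallest possible p 0.005). Adjusted over these 4 comparisons by the Benjamini-Hochberg method, every p was 0.815. The sign of this genotype difference was not stable. It was 0.30 without the replicate 1 lists (permutation test of treatment within genotype over fewer arrangements, with 1 cKO cocaine list, p = 0.683), -0.059 with equal numbers of peaks, -0.39 without cKO cocaine replicate 1, -0.064 and -0.22 without cKO saline replicates 2 and 3, and -0.038 without WT saline replicate 1.

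**Figure D1:**
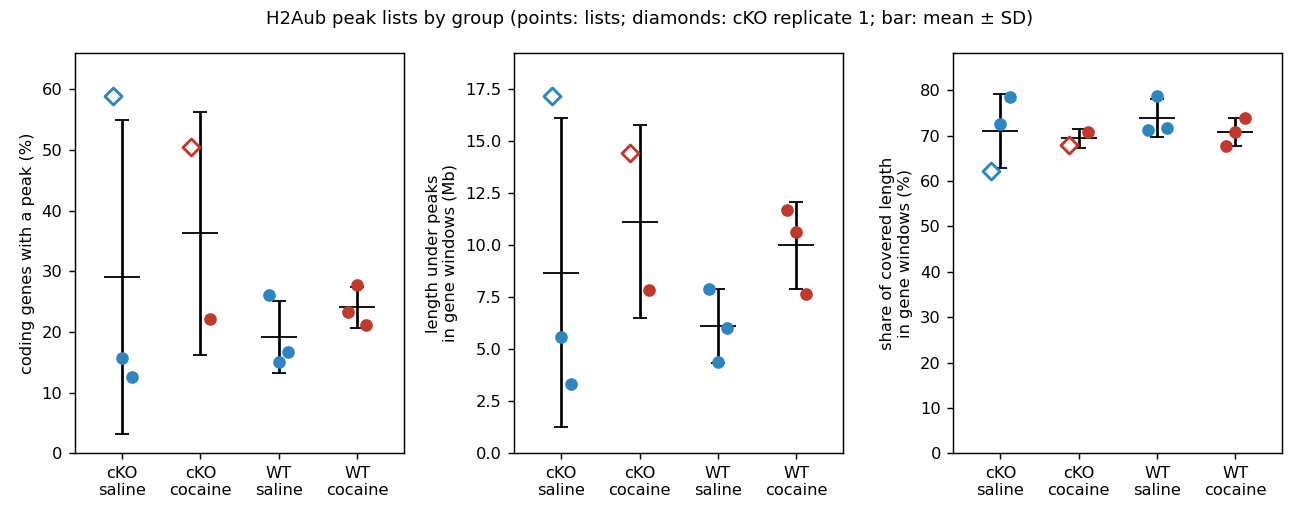
Share of coding genes with a peak (left, %), length under peaks in gene windows (middle, Mb) and share of the covered length lying in gene windows (right, %) for each peak list, by genotype and treatment. Points are lists, open diamonds are the cKO replicate 1 lists, and bars give the mean ± SD (n = 2 for cKO cocaine, 3 for the others). In cKO the 2 cocaine lists sit at 50.4 and 22.1% of genes, inside the saline range of 12.6 to 58.9%.

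Many genes carried H2Aub in every list of both treatments. Peaks lay in all 5 lists at 1876 genes (8.57%) and in no list at 7748 genes (35.4%). A further 4812 genes (22.0%) had peaks in both replicate 1 lists and in no other. The genes marked in all 5 lists held 38.4 and 57.8% of the covered length of the cocaine lists. In saline replicates 1, 2 and 3 they held 30.3, 63.9 and 73.7%. The shorter a list was, the larger the share of it that lay at these genes. They were chosen by a peak in every list, the shortest included, so this order follows in part from the choice. Genes marked in the replicate 1 lists alone held 10.8% of cocaine replicate 1 and 11.9% of saline replicate 1. Of the genes with a peak in cocaine replicate 2, 59.8% also had one in saline replicate 2 and 47.9% in saline replicate 3. In the other direction, 84.3% of the genes of saline replicate 2 and 84.1% of those of saline replicate 3 had a peak in cocaine replicate 2.

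Counted gene by gene, length under peaks was more often longer after cocaine than after saline when groups did not overlap, by a margin that depended on the scale. Both cocaine lists exceeded all 3 saline lists at 551 genes (2.52% of all genes), and all 3 saline lists exceeded both cocaine lists at 11 genes (0.0503%). Scaled to base pairs per Mb of each list's covered length, the counts were 733 and 53. With each list cut to its 7271 peaks of best q they were 131 and 61. Without the replicate 1 lists, cocaine replicate 2 exceeded both saline lists at 3858 genes (17.6%) and lay below both at 165 genes (0.754%). Per Mb of covered length these became 2693 and 753, so that the share of such genes that were higher in cocaine went from 95.9 to 78.1%. The replicate 1 lists alone gave the opposite balance, with 4887 genes longer in cocaine and 9061 shorter (35.0% longer), or 6608 and 7353 per Mb of covered length (47.3%). Genes that were longer in cocaine within both kinds of list, replicate 1 against replicate 1 and replicate 2 against saline replicates 2 and 3, numbered 1562 (7.14%), and 93 genes (0.425%) were shorter within both. Per Mb of covered length these were 1410 and 172. In base pairs, 2188 genes (10.0%) were shorter in cocaine between the replicate 1 lists and longer in the other kind. The reverse held at 68 genes (0.311%). Over all genes the median log2 ratio was 0. Over the 1876 genes with a peak in all 5 lists it was 0.42, with 0.71 without the replicate 1 lists and -0.00 between the replicate 1 lists.

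**Figure D2:**
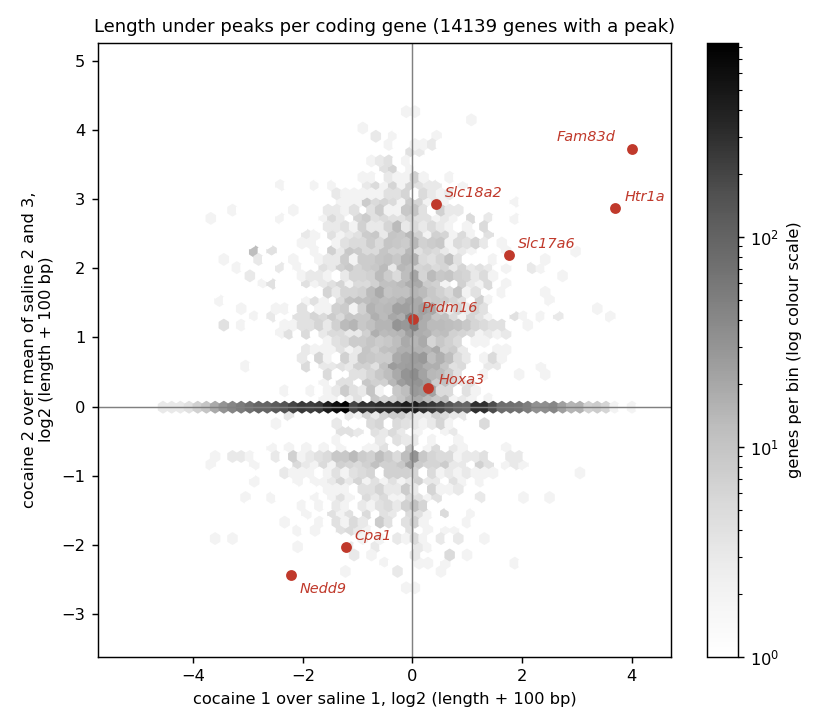
Length under peaks per coding gene as log2 of the cocaine to saline ratio, between the replicate 1 lists (x axis) and between cocaine replicate 2 and the mean of saline replicates 2 and 3 (y axis), with 100 bp added to every length. Grey bins count the 14139 genes with a peak in any of the 5 lists on a log colour scale, and red points are named genes. Fam83d, Htr1a and Slc17a6 lie above 0 on both axes, Nedd9 and Cpa1 below 0 on both, and the band at 0 on the y axis holds the genes without peaks in the 3 shorter lists.

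Genes with a peak after cocaine and none after saline were few, and their peaks were short and close to the calling limit. There were 67 genes with a peak in both cocaine lists and in no saline list (0.306% of all genes). With equal numbers of peaks per list there were 31, and 19 genes had peaks in all saline lists and no cocaine list. In the 3 lists that were not of replicate 1, 1517 genes (6.93%) had a peak in cocaine replicate 2 and in neither saline list, and 77 genes (0.352%) had peaks in both saline lists only. Mean length under peaks at the 67 genes ranged from 97.5 to 1368 bp, with a median of 322 bp, and reached 500 bp at 16 genes. The best peak per gene had a median −log10 q of 1.64 in cocaine replicate 1 and 1.36 in cocaine replicate 2, where the medians of all peaks of those lists were 2.34 and 1.46. The peaks of the 2 cocaine lists overlapped each other at 17 of the 67 genes and lay at different sites at the other 50. In WT mice, 40 of the 67 genes had a peak in some list. Of the 67, 24 (35.8%) had peaks in more WT cocaine than WT saline lists and 6 (8.96%) in fewer, beside 16.7 and 6.55% of all genes. By length without overlap, 5 of the 67 (7.46%) were longer in WT cocaine, which was near the 5.81% of all genes.

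Fam83d, a protein of the mitotic spindle, had the most length among them, with 1509 and 1227 bp after cocaine and 0 in each saline list. Peaks of both cocaine lists met inside the gene near its lower end, at chr2:158768474-158769360 in replicate 1 and chr2:158768645-158769320 in replicate 2 (mm10), with fold enrichments over input of 3.25 and 3.28. In WT the gene had 1053, 605 and 2418 bp after cocaine and 604, 0 and 508 bp after saline, where the lowest cocaine and the highest saline list differed by 1 bp.

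Htr1a, which encodes the serotonin 1A receptor, had 1198 and 628 bp after cocaine and 0 in each saline list. Its cocaine peaks also met at 1 site within the gene, chr13:105444587-105445443 in replicate 1 and chr13:105444675-105445302 in replicate 2 (mm10). The WT lists gave 848, 877 and 559 bp after cocaine against 429, 120 and 0 bp after saline, so that at Htr1a the treatment groups did not overlap in either genotype. Ctsd, the gene of the lysosomal protease cathepsin D, had 480 and 609 bp after cocaine and 0 in each saline list. The Ctsd peaks lay outside the gene, 4346 and 4228 bp below its lower end, and in WT the gene had 683, 940 and 398 bp after cocaine against 220, 0 and 0 bp.

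Apela, the gene of a ligand of the apelin receptor, had 125 and 1086 bp after cocaine at a shared site, and no peak after saline. Adrb3, the gene of the beta-3 adrenergic receptor, had 1149 and 425 bp after cocaine. Npy4r, the gene of a neuropeptide Y family receptor, had 977 and 175 bp. The Adrb3 and Npy4r peaks of the 2 cocaine lists overlapped by 34 and 65 bp only. The window of Got1l1 (1175 and 139 bp) reached 1 of the peaks of Adrb3, so these genes are not separate observations.

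In the other named genes of this kind the peaks of the 2 cocaine lists lay at different places. Muscle genes were among them, with 1543 and 377 bp at Acta1 (skeletal muscle actin) and 625 and 632 bp at Myh13 (a muscle myosin heavy chain). Klhl21, an adaptor of a Cullin ubiquitin ligase, had 606 and 748 bp. Ankrd35 had 1312 and 526 bp, and Tnfrsf19, a receptor of the tumour necrosis factor receptor family, had 1202 and 116 bp. All 5 had 0 bp in each saline list.

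The reverse pattern, peaks in all 3 saline lists and in neither cocaine list, held at 1 gene (0.00457%), Cpa1, the gene of the digestive enzyme carboxypeptidase A1. Its saline lists held 133, 480 and 139 bp. These peaks lay outside the gene, above its upper end in replicate 1 and below its lower end in replicates 2 and 3. In WT the direction was the other way, with 133, 133 and 139 bp after cocaine and 105, 0 and 0 bp after saline.

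**Figure D3:**
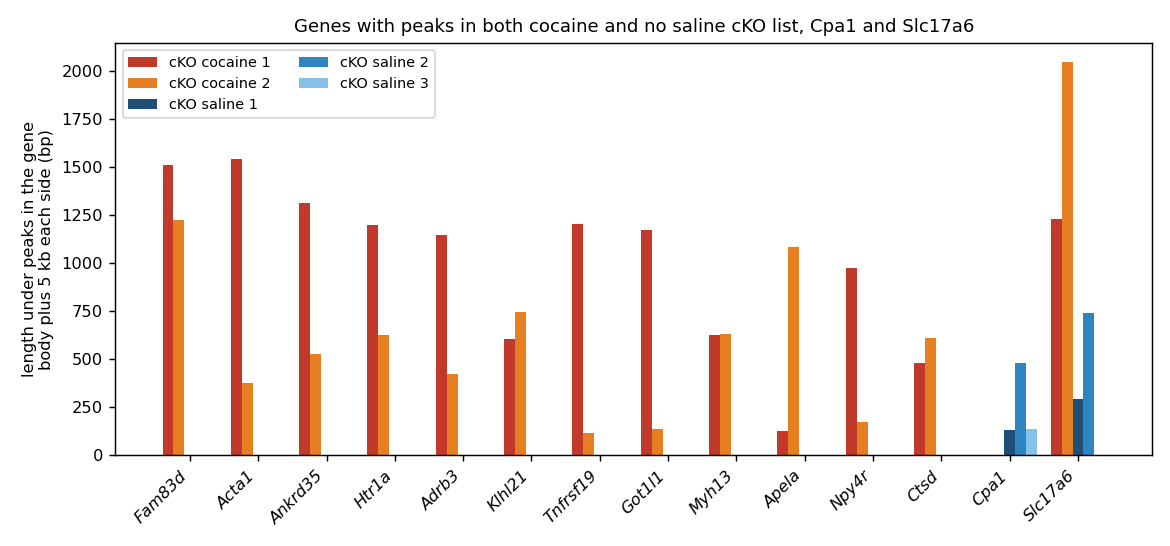
Length under peaks in the window of each gene (bp, bars starting at 0) in the 5 cKO lists, for the 12 genes with most length among those with peaks in both cocaine and no saline list, for Cpa1 and for Slc17a6. Saline bars are absent from the first 12 genes, Fam83d stands at 1509 and 1227 bp, and at Slc17a6 both cocaine bars exceed the highest saline bar of 743 bp.

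Among genes higher in cocaine within both kinds of list, Hapln3, the gene of a link protein of the hyaluronan matrix, had 3092 and 1170 bp after cocaine. Its saline lists held 419, 0 and 0 bp. In WT it had 2582, 897 and 1510 bp after cocaine and 422, 0 and 0 bp after saline, again without overlap. Cd7 (478 and 504 bp) and the keratin-associated gene Krtap4-1 (425 and 601 bp) completed the 10 genes named for this pattern, and both had 0 bp in each saline list.

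The 10 genes named for being lower in cocaine within both kinds of list had no peak in cocaine replicate 2. Nedd9, the gene of an adhesion docking protein, had 683 and 0 bp after cocaine and 3545, 477 and 405 bp after saline. Its groups overlapped, because cocaine replicate 1 exceeded the shorter saline lists. No peak of Nedd9 in saline replicate 2 or 3 overlapped one of saline replicate 1. The 10 genes also included Slc39a14 (a zinc and manganese transporter), Slco3a1 (an organic anion transporter), Smoc1 and the synaptic adhesion gene Tenm2. At Tenm2 the lists held 2828 and 0 bp after cocaine and 7071, 133 and 166 bp after saline. Upk3bl, Hhatl, Efcab5, Cmtm8 and Cpa1 made up the rest.

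Slc17a6, the gene of Vglut2 whose promoter drove the Cre, had more length under peaks after cocaine. The cocaine lists held 1229 and 2045 bp and the saline lists 292, 743 and 0 bp, so the groups did not overlap, and the same was true without the replicate 1 lists (log2 2.19, and 1.96 over all 5 lists, with 100 bp added to each length). When each list was cut to its 7271 peaks of best q the direction at Slc17a6 turned (log2 -1.01). The peaks clustered at the lower end of the gene, where a peak of cocaine replicate 2 (chr7:51626457-51627418) met one of saline replicate 2 (chr7:51626835-51627577), while no peak of cocaine replicate 2 met one of cocaine replicate 1. In both replicate 1 lists a narrow peak of 145 and 152 bp lay at the same place far inside the gene, with fold enrichments of 8.55 and 6.35. The WT lists overlapped between treatments, at 1867, 951 and 1391 bp after cocaine and 1006, 0 and 1023 bp after saline.

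Usp7 had 303 bp in cocaine replicate 1 and 616 bp in saline replicate 1, and none in the other 3 lists. C1ql3, which encodes a secreted C1q-like synaptic organizer, had 1361 and 796 bp after cocaine and 983, 0 and 128 bp after saline. Its groups overlapped, but without the replicate 1 lists cocaine exceeded both saline lists. Scml4, a Polycomb-related gene, had 2272 and 2492 bp after cocaine against 3205, 1735 and 955 bp. Hopx, a small homeodomain protein, had 897 and 1678 bp against 1328, 1450 and 0 bp. Neither of these genes separated the treatments over 5 lists, but at both cocaine replicate 2 exceeded saline replicates 2 and 3.

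The windows with most H2Aub were those of developmental transcription factors, and their coverage varied less between lists than the covered length did. The 18 lists of such factors held 223 genes, of which 189 (84.8%, beside 8.57% of all genes) had a peak in all 5 lists and 3 (1.35%, beside 35.4%) in none. Peaks covered 25.2 and 30.0% of their windows after cocaine. After saline they covered 23.5, 26.5 and 18.9%, so the groups overlapped. In kilobases this was 1613 and 1916 kb after cocaine against 1504, 1694 and 1208 kb after saline, a narrow range beside the covered length of the whole lists. These genes therefore took 7.60 and 17.3% of the covered length of the cocaine lists and 5.46, 22.1 and 28.5% of that of the saline lists, a share that was lowest in the longest list and highest in the shortest, whatever the treatment. Of the 223 genes, 30 were higher in both cocaine lists than in all saline lists (13.5%, beside 2.52% of all genes), none was lower, and 105 were higher within both kinds of list (47.1%, beside 7.14%). Without the replicate 1 lists 162 were higher (72.6%, beside 17.6% of all genes) and 2 lower (0.897%, beside 0.754%).

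The HoxA cluster, which patterns the body axis and limbs and is silent in the forebrain, was the most covered list. Peaks lay over 67.1 and 90.6% of its windows after cocaine. After saline they lay over 57.2, 88.8 and 65.4%. High and low coverage occurred in both treatments, with both replicates numbered 2 at the top. The cluster was broken into 32 and 15 peaks after cocaine and 39, 16 and 34 peaks after saline, and the widest single peaks reached 26.2 kb (cocaine replicate 2) and 15.9 kb (saline replicate 2). Hoxa3, the member with most length, held 35753 and 49670 bp after cocaine against 29347, 48076 and 33982 bp.

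The other Hox clusters had the same shape. HoxB windows were covered to 63.1 and 80.4% after cocaine and 57.6, 75.7 and 57.5% after saline. HoxC windows were covered to 56.2 and 86.4% against 55.0, 79.4 and 50.5%. HoxD windows were covered to 59.3 and 81.1% against 56.8, 78.1 and 58.2%. In kilobases the mean of the 4 clusters was 0.12 to 0.21 higher in cocaine on the log2 scale, and 0.23 to 0.41 higher without the replicate 1 lists, while per Mb of covered length cocaine replicate 2 lay below saline replicates 2 and 3 in each of them. Among the 39 genes of the 4 clusters, all had peaks in all 5 lists, beside 8.57% of all genes. Hoxb1 and Hoxc12 alone were higher in both cocaine lists than in every saline list, beside 2.52% of all genes.

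**Figure D4:**
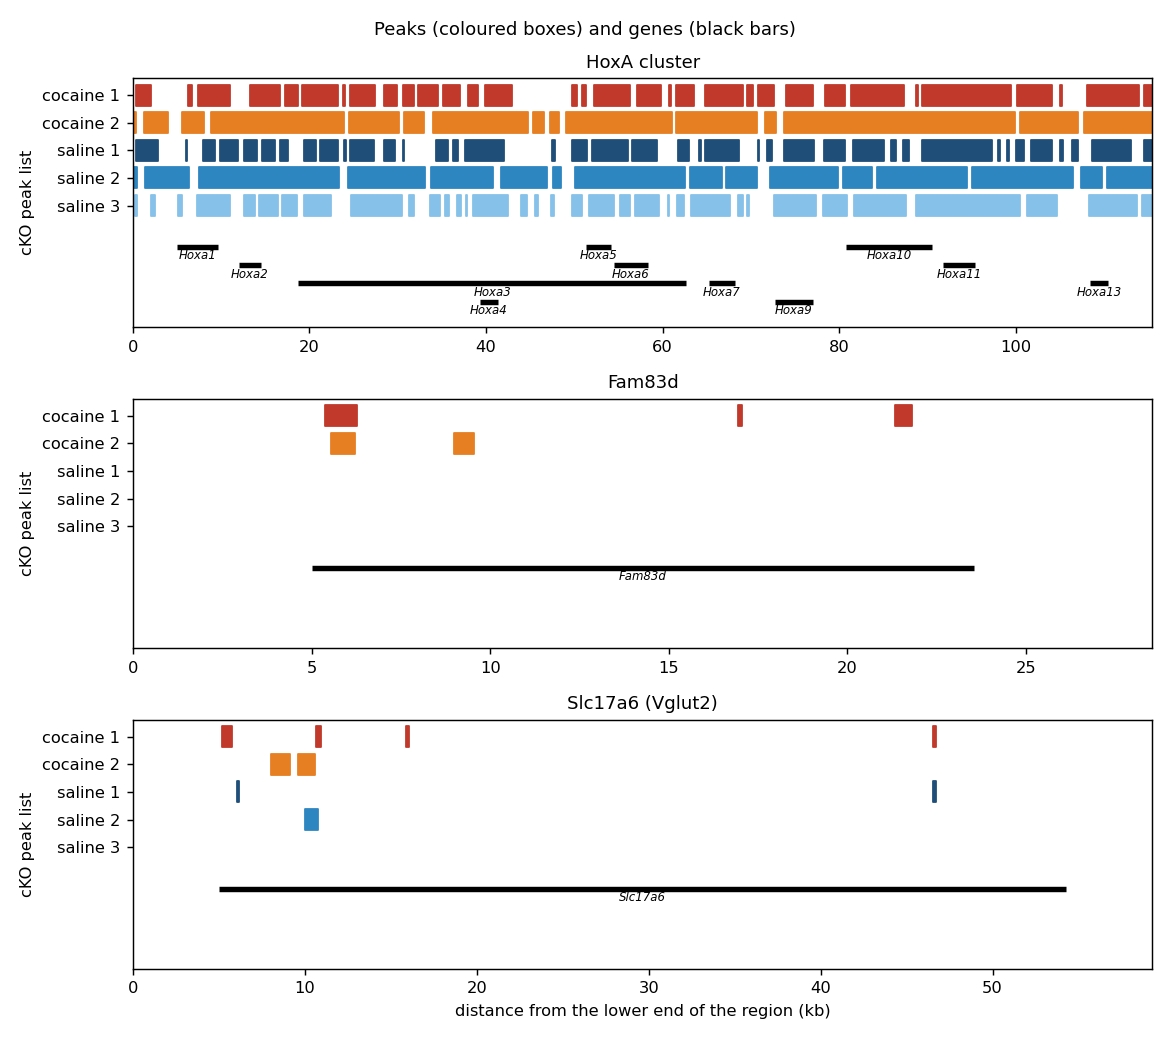
Peaks (coloured boxes) in the 5 cKO lists over the HoxA cluster, Fam83d and Slc17a6 with 5 kb on each side, against the distance in kb from the lower end of each region, with genes as black bars. HoxA is filled to 67.1 and 90.6% of its length after cocaine and to 57.2, 88.8 and 65.4% after saline, Fam83d has peaks in the cocaine lists only, and Slc17a6 has short peaks near its lower end in 4 of the 5 lists.

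Outside the Hox clusters, 6 lists did not overlap between treatments, each longer in kilobases after cocaine. The group means of all 6 turned when scaled per Mb of covered length, but the kinds of list differed on that scale. Between the replicate 1 lists cocaine was higher per Mb in each of the 6 (Iroquois genes, 2164 against 1516 bp per Mb). Cocaine replicate 2 lay below saline replicates 2 and 3 in each (Iroquois genes, 4894 against 5466 and 6046 bp per Mb). The Iroquois genes, homeobox factors of neural patterning, held 45.9 and 54.1 kb after cocaine against 41.8, 41.9 and 25.6 kb after saline (log2 0.46, 0.68 without the replicate 1 lists, and -0.30 per Mb of covered length). Irx2 showed the widest gap between groups of the 3 members with most length, with 9001 and 11773 bp after cocaine against 7478, 7928 and 4413 bp. In WT the Irx2 lists overlapped, at 9183, 7302 and 7421 bp after cocaine and 8781, 6002 and 5516 bp after saline. Irx4 held 10921 and 12741 bp after cocaine against 10450, 9563 and 6691 bp. The direction at Irx4 turned with equal numbers of peaks per list (log2 -0.054).

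Neural bHLH genes, which drive neurogenesis, held 143.7 and 153.2 kb after cocaine against 132.5, 113.7 and 67.6 kb (log2 0.50, 0.76 without the replicate 1 lists, and -0.20 per Mb of covered length). Atoh8 held 22460 and 29670 bp against 16560, 19066 and 9567 bp, without overlap. The LIM homeobox genes held 154.7 and 170.5 kb against 138.5, 149.5 and 105.1 kb (log2 0.31, 0.42 without the replicate 1 lists, and -0.53 per Mb of covered length). Among them Lhx2, which is also a thalamic identity gene, held 16896 and 19506 bp against 14411, 17359 and 10689 bp, and its groups overlapped.

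The Lbx, Uncx, Barx, Barhl and Tlx homeobox genes held 100.4 and 107.5 kb after cocaine against 86.6, 98.6 and 85.9 kb (log2 0.20, 0.22 without the replicate 1 lists, and -0.74 per Mb of covered length). The window of Uncx was almost filled in each list, at 13821 and 14315 bp against 12890, 13271 and 12811 bp. With equal numbers of peaks per list the direction at Uncx turned (log2 -0.85). The Zic, Otx, Emx and En patterning genes held 92.1 and 101.8 kb against 90.4, 80.0 and 66.4 kb (log2 0.30, 0.48 without the replicate 1 lists, and -0.53 per Mb of covered length). The Pou3f and Pou4f neuronal factors held 38.8 and 42.2 kb against 34.0, 35.1 and 23.2 kb (log2 0.40, 0.53 without the replicate 1 lists, and -0.41 per Mb of covered length). In these 6 lists cocaine replicate 2 had the most kilobases although 2 lists had more peaks.

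The remaining developmental lists overlapped between treatments in kilobases. Forkhead genes held 145.3 and 175.8 kb after cocaine against 135.2, 160.2 and 122.8 kb. T-box genes held 136.4 and 162.3 kb against 119.3, 144.9 and 102.2 kb. Pax genes held 123.7 and 147.2 kb against 121.5, 130.4 and 89.9 kb. In each of these, as in the Nkx (97.2 and 112.3 kb against 91.0, 102.6 and 70.6 kb), Gata, Dlx and Gsx and Hox lists, saline replicate 2 exceeded cocaine replicate 1 in spite of being the shorter list. Sox genes, at 73.9 and 71.2 kb against 80.5, 58.4 and 34.4 kb, overlapped because saline replicate 1 exceeded cocaine replicate 1. Gata genes held 60.6 and 85.7 kb against 57.7, 78.7 and 54.1 kb, and Dlx and Gsx genes, of the GABA lineage, held 69.4 and 90.6 kb against 65.9, 83.4 and 60.1 kb. Tbx21 and Bhlhe23, chosen after their values were seen, were the 2 factors lower within both kinds of list (0.897%, beside 0.425% of all genes). Tbx21 held 2239 and 1147 bp after cocaine against 3087, 2300 and 1292 bp, and Bhlhe23 held 3150 and 1356 bp against 3196, 1810 and 2303 bp.

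Of single genes over the whole genome, Prdm16, a transcriptional regulator of brown fat and neural progenitors, had the most length under peaks. It held 61470 and 66388 bp after cocaine against 61407, 36175 and 18759 bp after saline. The groups did not overlap, but cocaine replicate 1 exceeded saline replicate 1 by less than 100 bp. Gse1 (46427 and 13465 bp against 50311, 11896 and 5481 bp) followed list length instead. Gata4, a cardiac and endodermal factor, held 18927 and 33554 bp against 19138, 32618 and 19118 bp, with no order by treatment. Casz1, Tbx5, Pax2, Tfap2a and the Hox genes Hoxa3, Hoxb3 and Hoxd3 were the others among the 10 genes with most length.

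Thalamic identity genes were less covered than developmental factors as a group, and their order over the lists was that of covered length. The 18 thalamic identity genes were covered to 2.58 and 2.00% after cocaine and 3.02, 1.63 and 0.960% after saline, beside 1.22 and 0.663% after cocaine and 1.45, 0.470 and 0.281% after saline over the windows of all coding genes. Lhx2, Lhx9 and Gbx2 were the members with most length. Gbx2, a homeobox factor of thalamic development, held 7659 and 9690 bp after cocaine against 7428, 7856 and 7567 bp. Pvalb and Slc17a6 were the 2 members without overlap between treatments (11.1%, beside 2.52% of all genes). Pvalb, the gene of the calcium buffer parvalbumin, held 1947 and 1516 bp after cocaine against 1364, 492 and 143 bp after saline.

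Among lists of transmitter systems, the dopamine and monoamine genes stood higher after cocaine per Mb of covered length, at 1079 and 1135 bp per Mb against 766, 796 and 662 bp per Mb. In kilobases the same list overlapped, with 22.9 and 12.5 kb against 21.1, 6.1 and 2.8 kb (log2 0.82, and 1.47 without the replicate 1 lists). Only this list and the astrocyte markers, of 41 lists, had treatments that did not overlap on that scale. Slc18a2, the vesicular monoamine transporter, held 3917 and 3777 bp after cocaine against 2892, 666 and 153 bp after saline. In WT it held 3419, 3500 and 2130 bp after cocaine against 968, 1190 and 555 bp, without overlap. Slc18a2 and Slc6a3 were the 2 members of the list whose treatments did not overlap in cKO, beside 2.52% of all genes. Slc6a3, the dopamine transporter and a direct target of cocaine, held 1348 and 1283 bp against 598, 0 and 451 bp, and in WT 2516, 1931 and 1105 bp against 859, 310 and 496 bp.

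Slc6a3 and the dopamine receptors below are named with their values seen. The receptors overlapped between treatments. Drd2 held 2454 and 903 bp after cocaine against 3126, 768 and 791 bp, and Drd1 held 458 and 396 bp against 1062, 0 and 0 bp. Slc6a4, the serotonin transporter, held 2488 and 1438 bp against 2339, 2584 and 199 bp, with overlap.

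The remaining transmitter lists overlapped. Nicotinic receptor genes held 12.4 and 7.9 kb after cocaine against 12.3, 5.8 and 2.3 kb after saline, and genes of neurotransmitter identity held 44.2 and 41.0 kb against 41.9, 34.1 and 21.2 kb. Serotonin receptors held 16.8 and 7.3 kb after cocaine against 18.4, 5.4 and 1.0 kb, and Htr1a was the 1 member of 14 without overlap, beside 2.52% of all genes. Opioid and Cart genes held 7.7 and 6.5 kb against 10.0, 3.1 and 3.8 kb. Its members differed in both directions. Oprd1, the delta opioid receptor, held 2485 and 3009 bp after cocaine against 2378, 781 and 1007 bp. Cartpt, the precursor of the cocaine- and amphetamine-regulated transcript peptide, held 1320 and 504 bp after cocaine against 2094, 548 and 1356 bp. Penk, the enkephalin precursor, held 1092 and 798 bp against 1776, 1320 and 821 bp. Cartpt and Penk were lower within both kinds of list (2 of 9 members, beside 0.425% of all genes), but over all 5 lists their groups overlapped.

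C1q-like and cerebellin genes, which encode secreted synaptic organizers, held 24.5 and 17.1 kb after cocaine against 19.7, 11.4 and 9.0 kb. C1ql4, Cbln1 and Cbln4 were its members without overlap, beside 2.52% of all genes. C1ql4 held 6939 and 4277 bp against 3885, 1746 and 1044 bp, and its WT lists did not overlap either, at 6357, 5229 and 4488 bp against 3326, 2554 and 3700 bp. Cbln1 held 3935 and 4788 bp against 3726, 3852 and 3175 bp. From the genes of neurotransmitter identity, Slc32a1, the vesicular GABA transporter, held 9325 and 9167 bp against 8956, 8410 and 5807 bp, and its direction turned when lists were cut to equal numbers of peaks (log2 -0.43).

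Immediate early genes, which respond to neuronal activity within minutes, overlapped between treatments as a list. The list held 47.9 and 32.9 kb after cocaine against 48.9, 26.9 and 17.1 kb after saline. Of its 20 genes, 10 had peaks in all 5 lists (50.0%, beside 8.57% of all genes). Fosl1 was higher without overlap (1 gene, 5.00%, beside 2.52%) and Fosb was lower within both kinds of list (1 gene, beside 0.425%). Fosb, whose stable product accumulates in the striatum after repeated drug exposure, held 1996 and 334 bp after cocaine against 3147, 866 and 412 bp after saline. Fos held 1654 and 1929 bp against 2417, 749 and 136 bp. Without the replicate 1 lists, 10 of the 20 genes (50.0%, beside 17.6% of all genes) were higher in cocaine replicate 2 and 1 (5.00%, beside 0.754%) was lower. Fosb, Fosl1 and Fos are named with their values seen.

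Morphogen genes were intermediate. Wnt ligands held 91.6 and 62.6 kb after cocaine against 84.7, 45.4 and 27.4 kb (log2 0.55, and 0.78 without the replicate 1 lists). Wnt10a held 9686 and 9100 bp against 5153, 4825 and 2295 bp without overlap, and its WT lists also did not overlap, at 12895, 12499 and 7448 bp against 6775, 2586 and 4435 bp. Hedgehog, Bmp and Gdf genes held 64.1 and 44.4 kb against 62.7, 33.9 and 25.9 kb. Bmp7 held 8930 and 4745 bp after cocaine against 6018, 1447 and 3556 bp, with overlap.

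The genes of the H2Aub machinery were covered to 1.80 and 1.15% after cocaine and 2.02, 0.738 and 0.420% after saline, in the order of list length. Cbx, Phc and Scm genes, subunits of PRC1 and related factors, held 24.7 and 18.4 kb after cocaine against 23.4, 14.5 and 8.1 kb. Cbx8 held 7167 and 7030 bp against 5287, 5610 and 1219 bp, without overlap. Writers and erasers of H2A ubiquitin were covered to 1.52 and 0.861% against 2.23, 0.367 and 0.201% (log2 of the length 0.35, and 1.57 without the replicate 1 lists). Pcgf1 and Usp22, named with their values seen, were the members of this list without overlap (8.70%, beside 2.52% of all genes). Bmi1, a PRC1 subunit, held 2885 and 3382 bp against 3129, 3160 and 1883 bp. PRC2 genes held 11.3 and 6.2 kb against 9.8, 3.9 and 2.5 kb. Epop, a PRC2 cofactor, held 4198 and 4293 bp against 3290, 2679 and 2512 bp, without overlap. Of the 48 genes of these 3 lists 14 had no peak in any list (29.2%, beside 35.4% of all genes). The CDK inhibitor genes held 23.7 and 31.1 kb against 24.3, 29.1 and 16.4 kb. Among them, the cell cycle regulator Cdkn2a held 10495 and 18392 bp against 12247, 20465 and 10860 bp, with no order by treatment.

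Ion channel and receptor subunit genes had most of their length in the replicate 1 lists. Glutamate and GABA receptor genes held 80.6 and 11.8 kb after cocaine against 103.0, 8.2 and 3.4 kb after saline. Of 48 such genes 21 had peaks in the replicate 1 lists alone (43.8%, beside 22.0% of all genes), while potassium channels (22.9%), calcium and sodium channels (20.0%) and axon guidance genes (24.6%) were near the share of all genes. Potassium channels held 156.9 and 67.2 kb against 190.5, 50.4 and 29.0 kb. Calcium and sodium channels held 107.8 and 37.8 kb against 135.2, 23.0 and 12.3 kb. Per Mb of covered length, potassium channels held 7391 and 6080 bp after cocaine against 6912, 6574 and 6846 bp after saline. On that scale calcium and sodium channels held 5078 and 3421 bp against 4904, 3000 and 2903 bp. Glutamate and GABA receptor genes held 3797 and 1063 bp per Mb against 3737, 1069 and 809 bp per Mb. In all 3 lists saline replicate 1 was the highest and saline replicate 3 the lowest. Of the 184 genes 7 were higher without overlap in cocaine (3.80%, beside 2.52%) and none was lower, while without the replicate 1 lists 65 were higher (35.3%, beside 17.6%) and 5 lower (2.72%, beside 0.754%).

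Axon guidance genes held 208.1 and 83.6 kb after cocaine against 227.8, 60.2 and 24.7 kb (log2 0.48, and 0.98 without the replicate 1 lists). Ribosomal protein genes, which every cell transcribes, had less length under peaks than all gene windows in each list. Peaks covered 0.462 and 0.126% of their windows after cocaine and 0.851, 0.0413 and 0.0751% after saline. They held 5.2 and 1.4 kb after cocaine against 9.5, 0.5 and 0.8 kb after saline, and 53 of the 83 genes had no peak in any list (63.9%, beside 35.4% of all genes). Clustered protocadherins held 2.2 and 1.4 kb against 2.3, 1.2 and 0.0 kb.

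Markers of other thalamic cell types gave mixed values. Astrocyte markers held 8.8 and 7.9 kb after cocaine against 9.4, 2.9 and 1.4 kb after saline, or 416 and 714 against 342, 382 and 321 bp per Mb of covered length. Fgfr3 held 4743 and 4623 bp of this after cocaine against 4673, 1155 and 864 bp, and Aldh1l1 held 1279 and 1386 bp against 752, 436 and 0 bp. Of the 8 astrocyte markers these 2 were higher within both kinds of list (25.0%, beside 7.14% of all genes). The list as a whole was lower in cocaine between the replicate 1 lists (log2 -0.09), and Aqp4 and S100b had no peak in any list. Oligodendrocyte markers held 16.8 and 14.0 kb against 18.7, 9.5 and 9.3 kb, and microglia and vessel markers held 9.4 and 6.6 kb against 17.3, 6.9 and 1.9 kb. The part of cell composition in the results above was not tested.

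**Figure D5:**
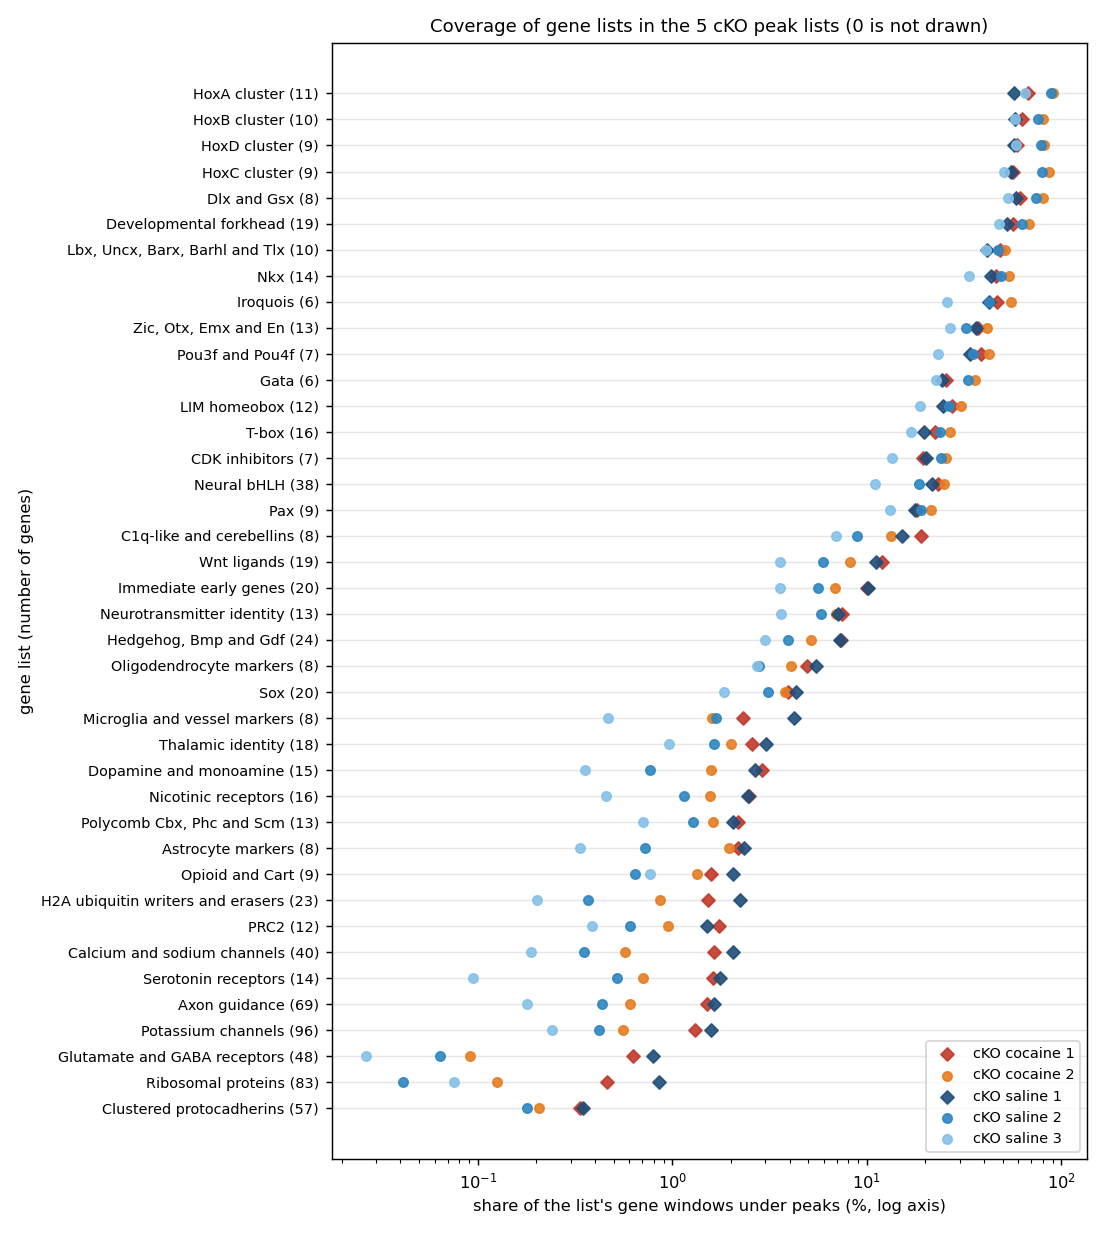
Share of the merged windows of 40 gene lists under peaks (x axis, %, log axis) in the 5 cKO lists, with gene lists ordered by their mean and their number of genes in parentheses. Diamonds are the replicate 1 lists and a value of 0 (clustered protocadherins in saline replicate 3) is not drawn. HoxA lies at 57.2 to 90.6%, with no order by treatment, and the glutamate and GABA receptor genes lie at 0.0266 to 0.799%, with the replicate 1 lists to the right.

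Across the 41 gene lists, mean kilobases were higher in cocaine in 39, in 24 between the replicate 1 lists alone, and cocaine replicate 2 exceeded saline replicates 2 and 3 in 40. Per Mb of covered length the direction of the group means turned in 29 of the 41. Saline replicate 3, the shortest list, was the lowest in 37 lists. No gene of any list was higher in all saline lists than in both cocaine lists, a pattern found at 0.0503% of all genes.

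The same comparison in WT gave the following counts. Of the 551 genes without overlap in cKO, 142 (25.8%) were also longer in all 3 WT cocaine lists than in all 3 WT saline lists, and none was shorter. Over all genes, 5.81% were longer in WT without overlap. The share was close to 25.8% among genes that were lower in cKO cocaine within both kinds of list, of which 23 of 93 (24.7%) were longer after cocaine in WT and none shorter, so it did not follow the direction in cKO. Of the 11 genes higher after saline in cKO, 1 was longer after cocaine in WT without overlap. No gene was tested for a difference between genotypes.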

How the data were processed

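The authors trimmed reads with Cutadapt, mapped them to mm10 with Bowtie2 (version 2.3.4.1), handled alignments with SAMtools and called broad peaks against total input with MACS2 (version 2.1.1.20160309.3), 1 list per library without pooling, per the study's methods and the labels. Each deposited list gives peak coordinates, a score that the authors' caller wrote as 10 times the −log10 q with decimals dropped, a fold enrichment over input as a linear ratio, and −log10 p and −log10 q. The deposited lists run to a q of nearly 0.1 and hold no read counts, so the depth of each list is unknown and longer lists may hold more of the mark or more reads.

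Columns 1 to 3 were used for lengths and fold and −log10 q for strength. Within a list, peaks of chromosomes 1 to 19, X and Y were merged and intersected with the bodies plus 5 kb of 21887 protein-coding genes of GRCm38.p6 (Python 3.11.15, pandas 2.3.3, numpy 2.4.6), matched by position. The gene table gives no strand, so "lower" and "upper" ends are by coordinate. A gene had a peak from 1 bp on. Log2 ratios of single genes used length plus 100 bp. Group means were compared by exact permutation tests over all arrangements of lists, two-sided. Each p is the share of arrangements with a difference at least as large as the observed one. Gene counts and gene lists had no test, and gene windows may share peaks.

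Named genes were the 12 with most cocaine length among genes with peaks in both cocaine and no saline list (and up to 8 of the reverse), 10 in each direction with the largest smaller ratio within both kinds of list, the 10 with most length, 3 per gene list by length, and Maged1, Usp7, Slc17a6, C1ql3, Hopx and Scml4. Others are named because they were the members without overlap, or for their role, after their values were seen. The members and the 41 gene lists (844 genes) were chosen with earlier results of these data known. For 1 gene list, values of its own are not reported here. Code was tested on simulated lists.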

Additional observations from a re-analysis of the deposited data

Results flagged for a closer look

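Cpa1 was singled out because its samples moved in opposite directions in the 2 genotypes. In cKO each of the 3 saline lists had peaks (133, 480 and 139 bp) and neither cocaine list had any, a log2 ratio of -1.81 that depends on the 100 bp added to every length. In WT each of the 3 cocaine lists (133, 133 and 139 bp) was above each saline list (105, 0 and 0 bp). This difference was not tested. Cpa1 was the 1 gene of 21887 with this pattern, and its peaks in saline replicate 1 and in saline replicates 2 and 3 lay on opposite sides of the gene. The 480 bp peak of saline replicate 2 had a −log10 q of 1.22 and the peak of saline replicate 1 a −log10 q of 1.03. With peaks of q at most 0.05, no gene had peaks in all 3 saline lists and in neither cocaine list.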

How the results depend on the processing

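No permutation test of the 5 cKO lists could pass 0.05, so only directions and counts were compared. Peaks with q of at most 0.05 gave 0 genes with peaks in the saline lists alone and 6 genes higher in saline. With each list cut to its 7271 peaks of best q, the difference in length in gene windows turned to -0.21 (log2) and that between genotypes to -0.059, and the counts became 31 (peaks in cocaine alone), 19 (saline alone), 131 (higher in cocaine) and 61 (higher in saline). Gene bodies alone turned the difference in share to 1.09 points and gave 0 genes with peaks in saline alone. All 49943 annotated genes gave 161, 12, 1048 and 32. Without the replicate 1 lists of both groups these counts were 1517, 77, 3858 and 165. Per Mb of covered length, a scale added after the data were seen, 53 genes were higher in saline. Leaving out 1 list at a time moved the difference in genes with a peak from -0.035 (without cocaine replicate 1) to 1.25 (without saline replicate 1), the share from -6.10 (without saline replicate 1) to 2.04 points (without saline replicate 3), and the genotype difference from -0.39 (without cocaine replicate 1) to 0.89 (without saline replicate 1), turning also without saline replicates 2 (-0.064) and 3 (-0.22) and WT saline replicate 1 (-0.038). The 4 counts ranged from 69 to 1272, 4 to 72, 564 to 4642 and 17 to 226. The highest came without saline replicate 1 (1272), cocaine replicate 1 (72), cocaine replicate 2 (4642) and saline replicate 3 (226). Genes with peaks in cocaine alone numbered 162 without cocaine replicate 1 and 1021 without replicate 2, and genes higher in cocaine 1099 without cocaine replicate 1 and 3274 without saline replicate 1. Leaving out any of the 5 lists moved both saline counts by over 1.5 times. The labels do not say that equal replicate numbers share a batch, and only 2 pairs exist. Deviations from group means over 14139 genes correlated at r = 0.41 for the replicate 1 pair and 0.34 for the replicate 2 pair, but with 2 cocaine lists the deviations mirror each other, so these values are not separate evidence of pairing. In a fit with the replicate number as a block the differences were 0.14, 0.12 and 2.04 points, with 1639 genes higher and 757 lower. Of the 41 gene lists, 29 changed direction per Mb of covered length, 23 with equal numbers of peaks, 2 without the replicate 1 lists and 1 at q of at most 0.05. Among named genes, 71 changed direction with equal numbers of peaks (14 had no difference and 72 kept theirs), 7 without the replicate 1 lists, 7 at q of at most 0.05 and 6 with gene bodies alone. The group means of the 6 lists whose treatments did not overlap all turned per Mb of covered length, at -0.74 (Lbx, Uncx, Barx, Barhl and Tlx), -0.53 (LIM homeobox), -0.30 (Iroquois), -0.20 (neural bHLH), -0.53 (Zic, Otx, Emx and En) and -0.41 (Pou3f and Pou4f). Between the replicate 1 lists cocaine was higher per Mb in each of them. Of these 6, equal numbers of peaks turned the first, the second and the Zic list at -0.33, -0.12 and -0.059. Of the named genes whose treatments did not overlap, they turned Barx1 (-0.30), Bmp4 (-0.12, and -0.0023 at q of at most 0.05), Chrnd (-0.25), Gata2 (-0.059), Irx4 (-0.054), Slc17a6 (-1.01), Slc32a1 (-0.43), Sox14 (-0.22) and Uncx (-0.85). The cause of these changes was not tested.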
